A study of Nannochloropsis oceanica with 10 samples.

Results

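Among 10363 genes measured in Nannochloropsis oceanica, a unicellular marine alga, 10 are described here: g961, g1784, g2103, g3114, g3243, g4326, g6991, g7463, g7855 and g9910. They were chosen by their counts in the hlr1 mutant against the wild type after 6, 96 and 144 h of high light (HL), all 10 being lower in the mutant at the 3 times, so the strain differences at those times are given as a description. Most of them also stand in a list of genes that the study itself drew from these libraries at 6 h. The hlr1 mutant carries a hygromycin-resistance cassette inserted in an exon of HLR1 (g4928), in the IMET1 background, and it is a single line from a screen of random insertions. The wild type (WT) is strain IMET1 without the cassette. Cells of both strains grew at 50 µmol photons per square metre per second, stood overnight in the dark, and were then moved to continuous HL at 200 µmol. At 5 times (dark, 1, 6, 96 and 144 h of HL) each strain has a group, with 3 mRNA-Seq libraries named a, b and c per group, which makes 10 groups and 30 libraries.

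HLR1 belongs to the light-harvesting proteins that bind chlorophyll and pass excitation to photosystem I. Among the 10 genes, 2 have an annotation with a well-known role. DENN domain proteins such as the product of g4326 act, in animals, as exchange factors that switch on Rab GTPases and so direct membrane vesicles. Endo-beta-N-acetylglucosaminidases of glycoside hydrolase family 85, the annotation of g9910, cut the chitobiose core of N-linked glycans and are known in plants for trimming free glycans in the cytosol.

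The other 8 genes are known less well. The deposited annotation has no informative protein description for 7 genes, and 4 of these 7 (g1784, g2103, g6991 and g7855) have no match at all in the protein database used. For g7463 it names a glycosyl BNR protein and a partial glycosyl hydrolase transcript of Nannochloropsis gaditana, and for g3243 a conserved unknown protein of that species with a domain match to the gamma subunit of nitrate reductase, a haem-binding subunit known from bacterial respiratory enzymes. Further domain matches (viral protein families for g961, g1784 and g2103, a PIF1 helicase for g3114 and g7463, a glycosyltransferase for g6991, leucine-rich repeats for g7855) are listed without a score and are names only. For g7463 this match differs from its description. No role is assigned to these genes here.

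The 10 genes lay on 9 scaffolds, and none was on the scaffold of HLR1. Positions are those of the deposited tables, and the sources used here do not name their genome build. The DENN gene g4326 spans scaffold 127 from 460362 to 463946 on the minus strand, and the glycosidase gene g9910 spans scaffold 349 from 66506 to 71566 on the plus strand. The g3243 gene runs from 273754 to 275628 on scaffold 84 (minus strand) and g7463 from 674 to 2031 on scaffold 260 (minus strand), of which it is the only annotated gene. The g961 gene is at 128206 to 131300 on scaffold 18 (plus strand), and g3114 is at 806283 to 808667 on scaffold 82 (minus strand). The only pair on one scaffold was g1784 (722223 to 723948) with g2103 (1652378 to 1653257), both on the plus strand of scaffold 43 and 928429 bp apart. The last 2 genes were g6991 at 1209740 to 1211768 on scaffold 247 and g7855 at 980002 to 983811 on scaffold 267, both on the minus strand. Spans ran between 880 and 5061 bp, and 4 genes were on the plus strand.

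Library totals ranged between 4424898 and 7019039 counts. The dark and 1 h libraries stood apart in one respect: between 0.939% and 23.6% of 9160 well expressed genes had no count in them, against at most 0.0218% in any library from 6 h on. The main antenna gene VCP1 (g2383), the marker of the alga, was detected in every library at 2743 to 12290 CPM (counts scaled by library size and TMM factors over all 30 libraries). HLR1 itself kept counts in hlr1, at 479.6 to 1104 CPM in hlr1 libraries of any time and 737 to 2018 CPM in WT libraries. Its groups did not overlap at any time but 1 h, where hlr1 libraries had 774, 909 and 716 CPM and WT libraries 946, 960 and 907 CPM. In these bulk cultures, fewer cells with a transcript and less transcript per cell cannot be told apart.

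The strongest difference was that of g3243, whose transcript was nearly lost in hlr1. After 6 h of HL it had 2.47, 1.35 and 2.54 CPM in hlr1 and 60.9, 61.2 and 65.1 CPM in WT. After 96 h it had 6.16, 3.65 and 3.17 CPM in hlr1, against 87.4, 76.6 and 87.6 CPM in WT. After 144 h the levels were 3.72, 2.34 and 4.27 CPM in hlr1 and 77.3, 71.4 and 84.4 CPM in WT. Every hlr1 library was thus far below every WT library at the 3 times, and the hlr1 mean was 3.40%, 5.16% and 4.43% of the WT mean at 6, 96 and 144 h. The log2 fold changes of hlr1 over WT were -4.88 ± 0.20, -4.28 ± 0.18 and -4.50 ± 0.19 (SE, 3 libraries a group).

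The g7463 gene held a constant difference. In hlr1 it had 9.50, 8.11 and 14.8 CPM after 6 h, 8.43, 10.2 and 7.93 CPM after 96 h, and 8.23, 8.25 and 8.25 CPM after 144 h. In WT it had 79.1, 77.9 and 66.3 CPM after 6 h, 63.5, 64.4 and 62.0 CPM after 96 h, and 62.6, 47.7 and 55.5 CPM after 144 h. The hlr1 mean was between 14.0% and 14.9% of the WT mean at all 3 times, with log2 fold changes of -2.79 ± 0.18, -2.84 ± 0.13 and -2.75 ± 0.15.

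The glycosidase gene g9910 and the DENN gene g4326 shared a shape, in which the gap between strains was, among 6, 96 and 144 h, widest at 6 h. The shape is not particular to this pair, since the hlr1 share of the WT mean was lowest at 6 h for g3243 and g1784 too. For g9910, hlr1 had 8.59, 7.74 and 8.11 CPM after 6 h against 67.1, 55.9 and 64.1 CPM in WT. After 96 h, hlr1 had 23.2, 27.4 and 35.3 CPM against 68.5, 76.6 and 72.1 CPM in WT. After 144 h, hlr1 had 32.5, 31.8 and 24.9 CPM against 69.3, 80.6 and 76.6 CPM in WT. The hlr1 mean of g9910 was 13.1% of the WT mean at 6 h, 39.5% at 96 h and 39.4% at 144 h, the log2 fold changes being -2.94 ± 0.15, -1.34 ± 0.13 and -1.35 ± 0.13. For g4326, hlr1 had 7.68, 5.90 and 7.48 CPM after 6 h against 38.2, 36.4 and 39.4 CPM in WT. After 96 h, hlr1 had 23.3, 23.5 and 22.8 CPM against 74.4, 71.2 and 69.2 CPM in WT. After 144 h, hlr1 had 35.7, 23.3 and 43.1 CPM against 78.6, 85.6 and 87.5 CPM in WT. No hlr1 library reached a WT library at any of these times, and the hlr1 mean of g4326 was 18.5%, 32.4% and 40.5% of the WT mean at 6, 96 and 144 h. Its log2 fold changes were -2.44 ± 0.18, -1.63 ± 0.10 and -1.31 ± 0.19.

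For g961 and g6991 the gap was instead, among these 3 times, narrowest at 6 h, as it was by the share of the WT mean for g3114. The g961 transcript had 29.5, 34.9 and 38.9 CPM in hlr1 after 6 h, and 101.3, 96.5 and 74.0 CPM in WT. After 96 h it had 31.9, 37.7 and 35.6 CPM in hlr1 and 115.6, 87.5 and 127.1 CPM in WT. After 144 h it had 36.8, 32.6 and 27.7 CPM in hlr1 and 154.4, 132.8 and 134.6 CPM in WT. The hlr1 level of g961 therefore lay in one range throughout while the WT level was highest at 144 h, and hlr1 held 38.0%, 31.8% and 23.0% of the WT mean (log2 fold changes -1.40 ± 0.14, -1.65 ± 0.13 and -2.12 ± 0.13). The g6991 transcript was scarce in both strains. It had 4.82, 3.44 and 4.44 CPM in hlr1 and 9.06, 11.5 and 9.59 CPM in WT after 6 h, and 1.33, 1.51 and 1.42 CPM in hlr1 and 6.93, 8.36 and 8.34 CPM in WT after 144 h. Here the hlr1 mean was 42.2% of the WT mean at 6 h, 24.4% at 96 h and 18.0% at 144 h (log2 fold changes -1.25 ± 0.28, -2.04 ± 0.34 and -2.46 ± 0.29).

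The remaining 4 genes kept differences of smaller size or lower level. Hlr1 held 36.7%, 32.6% and 33.0% of the WT mean of g3114 at 6, 96 and 144 h, with 4.30 to 8.12 CPM over the 9 hlr1 libraries and 15.4 to 27.1 CPM over the 9 WT libraries. It held 34.7%, 31.8% and 39.9% of that of g7855, with 6.51 to 17.5 CPM in hlr1 and 17.7 to 48.1 CPM in WT, and the strains did not overlap at any one time. It held 23.6%, 28.8% and 29.3% of that of g1784, with 2.54 to 6.54 CPM in hlr1 and 7.70 to 20.2 CPM in WT. The g2103 gene rested on few reads, with 1 to 16 counts a library in hlr1 and 27 to 70 counts in WT, and hlr1 held 14.8%, 12.2% and 20.5% of the WT mean.

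**Figure D1:**
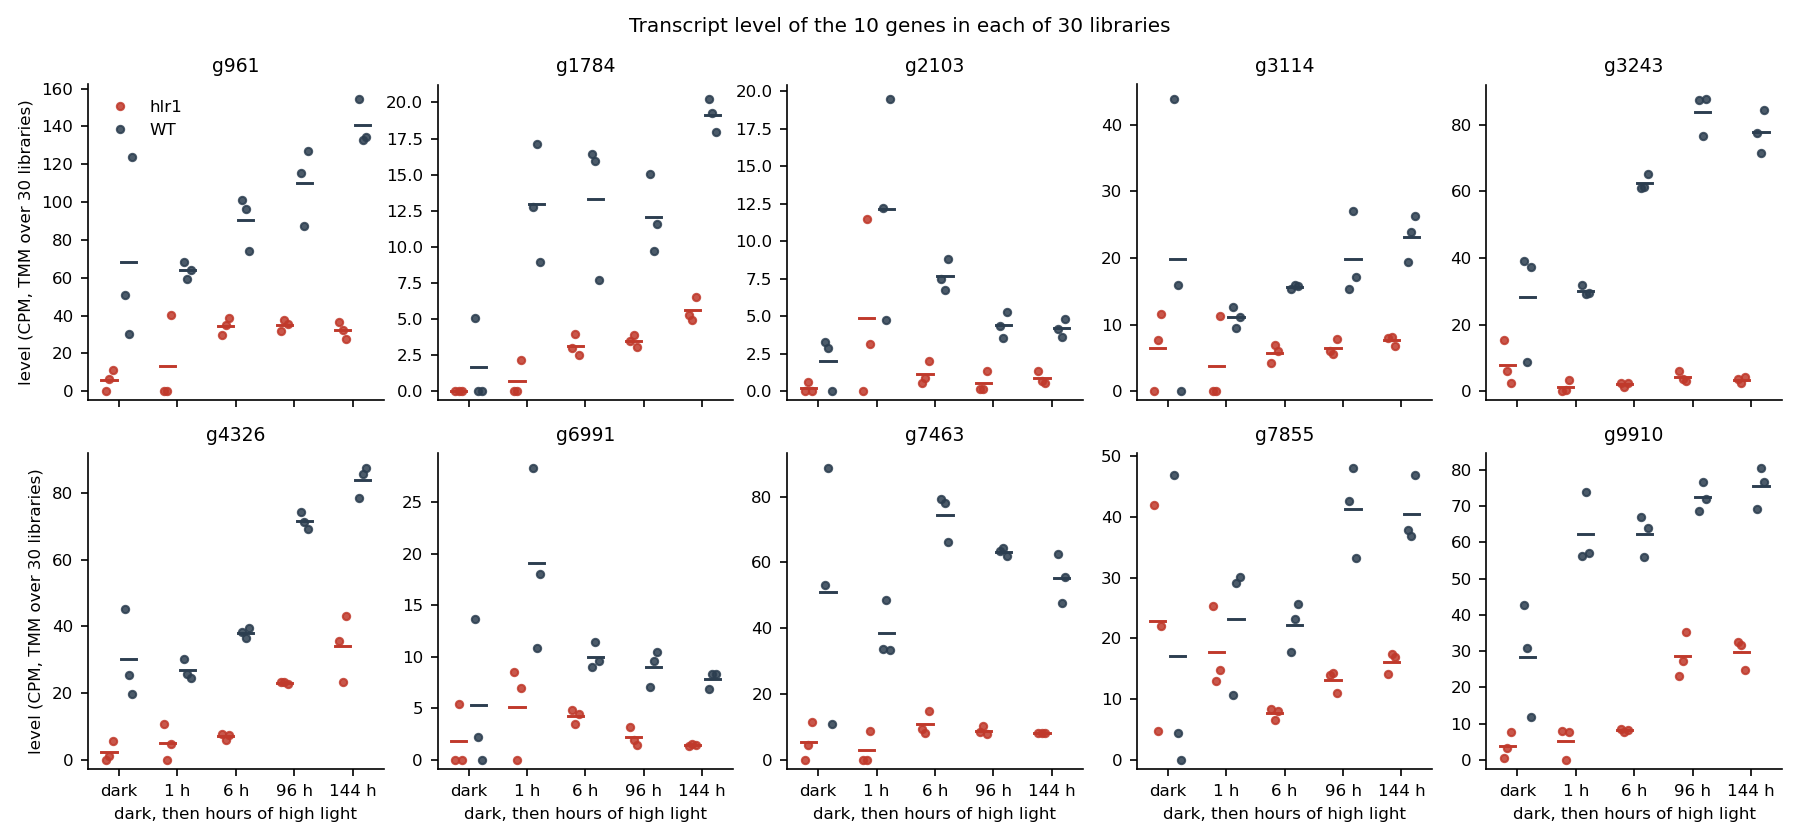
Level of each gene (y axis, CPM scaled by TMM over 30 libraries, with its own scale in each panel) at the 5 times (x axis). Points are libraries, bars are means of 3, red is hlr1 and dark blue WT; from 6 h on every hlr1 point lies below every WT point of its time, while dark and 1 h points are spread widely and 3 hlr1 dark libraries of g1784 are at 0.

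Between genes, levels were ordered per kb of gene span from start to end. This span includes any introns, while the reads are of mRNA, so the order is approximate. Per kb of gene span after 6 h, WT libraries had 48.8 to 58.3 CPM of g7463, 32.5 to 34.7 CPM of g3243 and 23.9 to 32.7 CPM of g961, so g7463 stood first and the next pair overlapped. The other 7 genes averaged 4.95 to 12.3 CPM per kb in WT. In hlr1 the order was another one. There g961 came first (9.55 to 12.6 CPM per kb over libraries) and g7463 overlapped with it (5.97 to 10.9 CPM per kb). The g3243 gene had the lowest mean in hlr1, 1.13 CPM per kb, which did not differ beyond the spread between libraries from that of g2103, 1.29 CPM per kb.

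Across all genes tested, calls between the strains were rare. A call here means more than 2-fold change with an adjusted p below 0.05 in edgeR's quasi-likelihood fit of the 2 groups. Lower in hlr1 were 0.265% of 9429 genes at 6 h, 0.316% of 9818 at 96 h and 0.255% of 9817 at 144 h, and the 10 genes were called at each of these times because that is how they were chosen. Their median log2 fold changes were -2.26, -1.73 and -1.95, beside -0.0036, -0.0062 and -0.0009 over all genes tested. At 144 h the calls depended on single libraries: 4 of the 10 were called without hlr1 library a, 6 without WT library b and 5 without WT library c, with all log2 fold changes still negative. Over all genes, 8 of 9854, 9 of 9866 and 8 of 9855 were called lower in these settings. At 6 h, leaving out any one of 5 of the 6 libraries ended the call of g6991, and at 96 h leaving out hlr1 library a or b ended that of g2103. With all 10 groups in 1 fit, 1, 0 and 1 of the 10 were called at 6, 96 and 144 h. That fit called 2, 1 and 2 of all 9970 genes lower at these times.

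In these fits 11 genes were called lower in hlr1 at all 3 times, the 10 and g10376. The eleventh, annotated as a D-arabinose 1-dehydrogenase-like protein, had log2 fold changes of -1.31, -1.28 and -1.37 at 6, 96 and 144 h. Another 9 genes were called at 2 of the 3 times and 30 at 1, whereas no gene was called higher in hlr1 at all 3. Just inside the threshold stood g6991 at 6 h (edgeR adjusted p = 0.0466) and g2103 at 144 h (edgeR adjusted p = 0.0413). Outside by the fold alone, at 96 h, stood g9002 with log2 fold changes of -1.63, -0.86 and -1.12 (edgeR adjusted p = 0.000374 at 96 h). The same held for HLR1, with -1.62, -0.30 and -1.09 (0.0181 at 96 h). Outside by the adjusted p stood g7046 with -4.53, -1.49 and -1.02 (edgeR adjusted p = 0.0644 at 144 h) and g9949 with -1.15, -1.14 and -1.27 (0.111 at 6 h). The g3975 gene, with -1.22, -1.41 and -0.89, missed both thresholds at 144 h (edgeR adjusted p = 0.114).

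The choice of the genes is not known to have used the dark and 1 h libraries. There edgeR called no gene lower in hlr1, 0% of 8730 genes in the dark and 0% of 8944 after 1 h. Over all genes DESeq2 called 8 lower in the dark and 3 after 1 h, and edgeR with all groups in 1 fit called 55 and 4, among them g4326 in the dark and g3243 after 1 h. Of the 10 genes, 8 passed the filter on low counts in the dark (g1784 and g2103 did not) and 10 after 1 h, and none was called. Of those tested, 6 in the dark and 9 after 1 h had fewer than 3 hlr1 libraries over the filter's cutoff. They passed it only with the help of WT libraries. For this reason the signs, medians, unadjusted p-values and gaps between groups given for these times are a description and no support. In the dark 7 of 8 were negative, with a median of -2.32 beside -0.02 over all genes, and after 1 h 10 of 10 were negative, with a median of -2.31 beside -0.05. At an unadjusted p under 0.05, edgeR placed 1 of the 8 in the dark (g961; 226 of all genes) and 3 of the 10 after 1 h (g3243, g7463 and g9910; 260 of all genes). DESeq2 called none of the 10 at either time.

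In the dark, g961 differed most clearly, with 0.244, 6.71 and 11.2 CPM in hlr1 against 51.0, 30.02 and 124 CPM in WT (log2 fold change -3.61 ± 1.21, edgeR adjusted p = 1). The DENN gene g4326 had 0, 1.05 and 5.72 CPM in hlr1 and 45.3, 25.4 and 19.7 CPM in WT, and g9910 had 0.488, 3.36 and 7.62 CPM in hlr1 and 42.6, 30.9 and 12.0 CPM in WT. For these 3 genes the strains did not overlap. The g3243 gene gave 15.4, 6.08 and 2.54 CPM in hlr1 and 39.2, 8.83 and 37.1 CPM in WT, where hlr1 library a exceeded WT library b. The only gene with a positive value was g7855, at 42.0, 4.82 and 22.0 CPM in hlr1 against 46.9, 4.41 and 0 CPM in WT (log2 fold change 0.62 ± 1.77), and that value turned negative without hlr1 library a (-0.33).

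After 1 h of HL, g3243 had 0, 0.212 and 3.31 CPM in hlr1 and 31.9, 29.2 and 29.5 CPM in WT (log2 fold change -4.69 ± 1.56, edgeR adjusted p = 0.998). For g9910 the levels were 8.10, 0 and 7.60 CPM in hlr1 and 56.4, 73.9 and 57.0 CPM in WT (log2 fold change -3.56 ± 1.12, edgeR adjusted p = 0.998). For g7463 they were 0, 0 and 8.77 CPM in hlr1 and 33.7, 48.6 and 33.3 CPM in WT (log2 fold change -3.77 ± 1.67, edgeR adjusted p = 0.998). In these 3 genes, named for their unadjusted p, no hlr1 library reached a WT library. This is a description, and the SEs were many times those of the later times.

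Scaled within each comparison, groups that did not overlap with hlr1 lower were seen, among the genes that passed that filter, for 4 of the 8 in the dark (g961, g4326, g7463 and g9910), where 5.45% of all tested genes showed this. After 1 h this held for 7 of the 10, all but g2103, g3114 and g7855, where 6.65% of all tested genes showed it. As said above, 6 of the 8 and 9 of the 10 passed the filter only with the help of WT libraries. These counts are therefore a description and no support. On the scale over 30 libraries, g7463 overlapped in the dark, with at most 11.7 CPM in hlr1 and at least 11.1 CPM in WT.

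Missing counts differed widely among the early libraries of both strains. After 1 h, hlr1 libraries a, b and c had no count for 6, 7 and 0 of the 10 genes and for 14.6%, 21.1% and 0.939% of well expressed genes, while WT libraries a, b and c had a count for each of the 10 and none for 4.72%, 6.41% and 2.14% of well expressed genes. In the dark, hlr1 libraries lacked 6, 1 and 3 of the 10 genes (23.6%, 6.92% and 1.16% of well expressed genes) and WT libraries 0, 1 and 5 (1.20%, 15.8% and 16.8%). Their part in the strain difference was not tested. As a description chosen after the data were seen, the library of each strain with the fewest missing counts can be set side by side. In the dark, hlr1 library c was below WT library a for 10 of 10 genes, with 0 counts of g1784, g2103 and g6991 against 25, 16 and 67. After 1 h, hlr1 library c was below WT library c for 9 of 10, with log2 ratios of -3.15 for g3243, -2.91 for g9910, -2.64 for g2103 and -0.66 for g961, and 0.025 for g3114. These are single libraries with no replicate check. The share of all genes lower in the same pairs of libraries is not given, so these counts are no support.

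The change of the strain difference between the dark and 1 h, 1 h minus dark, was tested over 4 groups. None of 9330 genes passed in edgeR (133 at an unadjusted p under 0.05), and among the 10 genes none had an unadjusted p under 0.05.

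**Figure D2:**
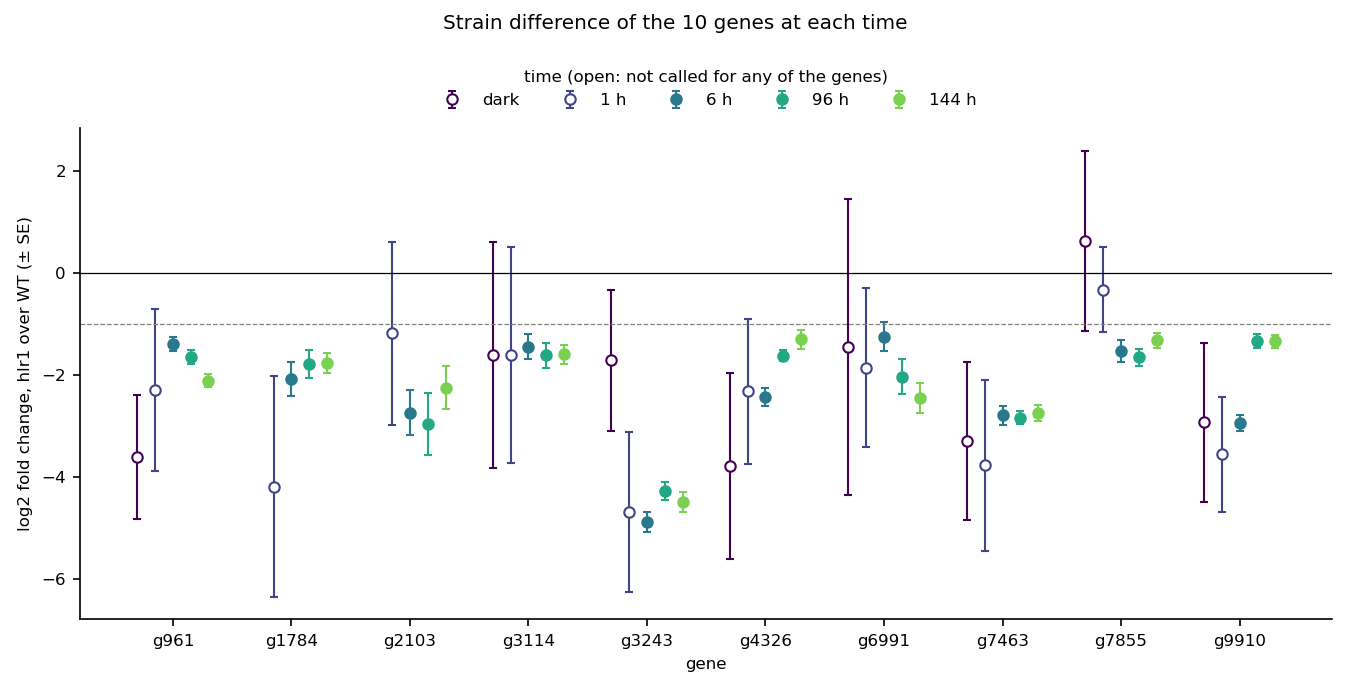
Log2 fold change of hlr1 over WT (y axis, points with SE bars from edgeR) for each of the 10 genes (x axis) at the 5 times, dark to 144 h of HL. Filled points (6, 96 and 144 h) are the values that chose the genes. Open points (dark, 1 h) are not known to have been used and have wide bars. The dashed line marks a 2-fold lower level, and g1784 and g2103 have no dark value because they did not pass the filter.

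Within each strain the levels of the 10 genes were followed between times. Such comparisons from 6 h on share libraries with those that chose the genes. In hlr1, the clearest change came between 6 and 96 h. The g9910 transcript was 3.48-fold higher at 96 h than at 6 h (log2 fold change 1.80 ± 0.18, edgeR adjusted p = 4.08e-09), and that of g4326 was 3.27-fold higher (1.71 ± 0.18, edgeR adjusted p = 1.19e-08). The lowest library at 96 h, 23.2 CPM for g9910 and 22.8 CPM for g4326, was well above the highest at 6 h, 8.59 and 7.68 CPM. With all groups in 1 fit both calls were lost, at nearly the same fold changes (edgeR adjusted p = 0.188 for g9910 and 0.345 for g4326).

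The third gene called in this comparison was g3243, at 2.01-fold (log2 fold change 1.01 ± 0.40, edgeR adjusted p = 0.0347). That call did not hold without hlr1 96 h library a (log2 fold change 0.67, edgeR adjusted p = 0.251), without hlr1 6 h library b (0.76, 0.138) and with DESeq2 (1.01, 0.0561). In all, 3 of 9 genes tested were called higher and none lower, while 9.53% of all genes were called higher and 4.3% lower. The g7855 gene rose by less than 2-fold (log2 fold change 0.75 ± 0.22, edgeR adjusted p = 0.00491), and g6991 fell by 0.95 ± 0.39 on the log2 scale (edgeR adjusted p = 0.039). Without hlr1 6 h library b or hlr1 96 h library a, g6991 was also called lower.

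In WT, none of the 10 was called between 6 and 96 h, where 9.22% of genes were called higher and 3.95% lower. Under 2-fold, g4326 rose by 0.88 ± 0.11, g7855 by 0.86 ± 0.18 and g3243 by 0.39 ± 0.10 on the log2 scale (edgeR adjusted p = 1.38e-05, 0.00118 and 0.00635). For g9910 the WT value was 0.18 ± 0.11 (edgeR adjusted p = 0.216), beside 1.80 in hlr1. Whether the changes of the strains differ was not tested. Without WT 96 h library c, g7855 was called higher.

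**Figure D3:**
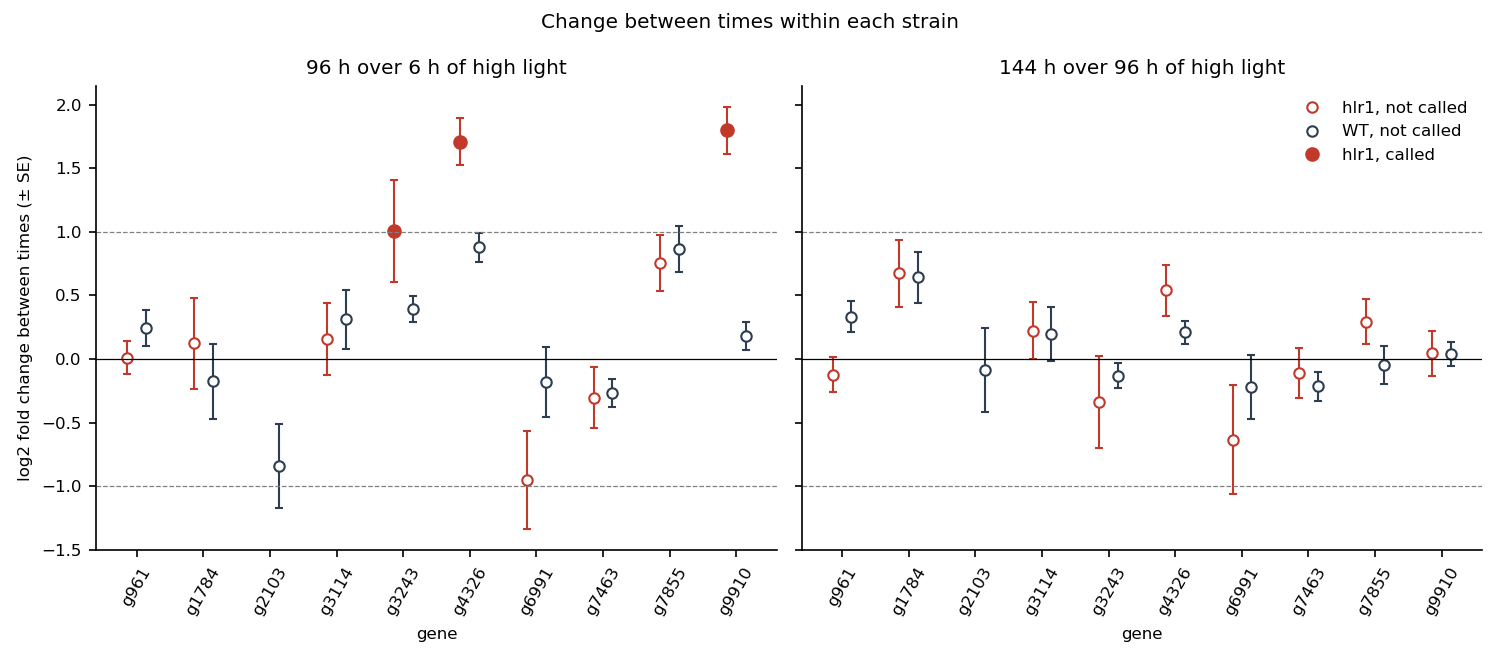
Log2 fold change of the later over the earlier time (y axis, points with SE bars from edgeR) for the 10 genes (x axis) in hlr1 (red) and WT (dark blue), for 96 h over 6 h on the left and 144 h over 96 h on the right. Filled points were called; they are g3243, g4326 and g9910 in hlr1 at 96 h over 6 h, and g2103 has no hlr1 value because it did not pass the filter.

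Between 96 and 144 h none of the 10 was called in either strain. The shares called over all genes were 2.81% higher and 0.357% lower in hlr1, and 0.244% higher and 0.377% lower in WT. The largest values at 144 h over 96 h were those of g1784, 0.67 ± 0.26 in hlr1 and 0.64 ± 0.20 in WT on the log2 scale (edgeR adjusted p = 0.106 and 0.0637).

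Against the dark, few changes of the 10 genes were called. After 1 h none was called in hlr1 (8 tested, with 0.687% of all genes called higher and 1.77% lower) or in WT (10 tested, with 0.978% higher and 2.13% lower). After 6 h none of the 10 was called in WT, where 8.94% of all genes were higher and 16.7% lower, although the 6 h and dark libraries did not overlap for g3243 (60.9 to 65.1 CPM at 6 h, 8.83 to 39.2 CPM in the dark) or g9910 (55.9 to 67.1 CPM at 6 h, 12.0 to 42.6 CPM in the dark). In hlr1, 1 of 9 genes was called higher after 6 h, where 12.7% of all genes were higher and 13.1% lower. That gene was g1784, with 2.99, 3.93 and 2.54 CPM after 6 h and no count in any of the 3 dark libraries (edgeR adjusted p = 0.0189), and no fold is given because the dark libraries vary by more than counting error. The libraries of g961 in hlr1 did not overlap either, at 29.5 to 38.9 CPM after 6 h and 0.244 to 11.2 CPM in the dark, but it was not called (edgeR adjusted p = 0.0962). The call of g1784 was lost when any single hlr1 6 h library was left out. WT had 25, 0 and 0 counts of g1784 in its dark libraries, so both strains had dark libraries without it.

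These comparisons with the dark also depend on scaling. The median log2 fold change of all genes at 6 h over dark was 0.45 in hlr1 and 0.10 in WT with TMM, and 0.77 and 0.82 with library totals, while those of the 10 genes that were tested had, with TMM, medians of 1.46 in hlr1 and 0.77 in WT.

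Genes beside the 10 were compared between the strains in the same way, as far as they passed the filter. The nearest annotated gene on each side gave 18 neighbours (g7463 has none), of which 13 were tested at 6 h, 13 at 96 h and 15 at 144 h. Their median log2 fold changes of hlr1 over WT were -0.12, -0.11 and -0.06, and none was called at 6 or 96 h. At 144 h 1 of 15 was called lower, beside the 0.255% of all genes. Around g3243, whose own value was below -4 at each time, the gene for a protein phosphatase 2A catalytic subunit (g3242) had 0.00, 0.48 and 0.31 and the borealin gene g3244, which codes for a cell division protein, had 0.22, -0.26 and -0.03. Around g4326, a protein kinase gene (g4325) and g4327 had values between -0.12 and -0.03. Others were lower in value without being called. Beside g1784 at 6 h, g1783 had -1.51 ± 0.61 (edgeR adjusted p = 0.311), g1782 further out -2.74 ± 0.78 (edgeR adjusted p = 0.107), and g1785 on the other side, annotated as an E3 ubiquitin ligase, -0.51 ± 0.16. The g2104 gene beside g2103 had -1.08 at 6 h but 0.54 at 96 h and 0.27 at 144 h, and g6992 beside g6991 had -0.60, -0.95 and -0.53. The neighbours of g9910 were not tested at 6 or 96 h.

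The neighbour called lower was g962, which ends 1 bp from g961 on the opposite strand. It had 3, 0 and 1 counts in hlr1 after 144 h and 16, 19 and 37 counts in WT (log2 fold change -4.05 ± 0.76, edgeR adjusted p = 0.0414). At 96 h it had 0, 2 and 9 counts in hlr1 and 11, 19 and 36 counts in WT (-2.48 ± 0.75, edgeR adjusted p = 0.0846). Since it is not given whether counting used the strand, reads of g961 and g962 cannot be told apart at their border. The gene on the other side of g961, g960 at 48 bp on the same strand, had 0.28, -0.10 and -0.35 at 6, 96 and 144 h. The g3115 gene, 154 bp from g3114 on the opposite strand, also had lower values in hlr1 at the 3 times, -0.74, -0.55 and -0.80, which passed the adjusted p only at 144 h (edgeR, 0.0358) and stayed under 2-fold. With 3 genes on each side, g962 remained the only one called.

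**Figure D4:**
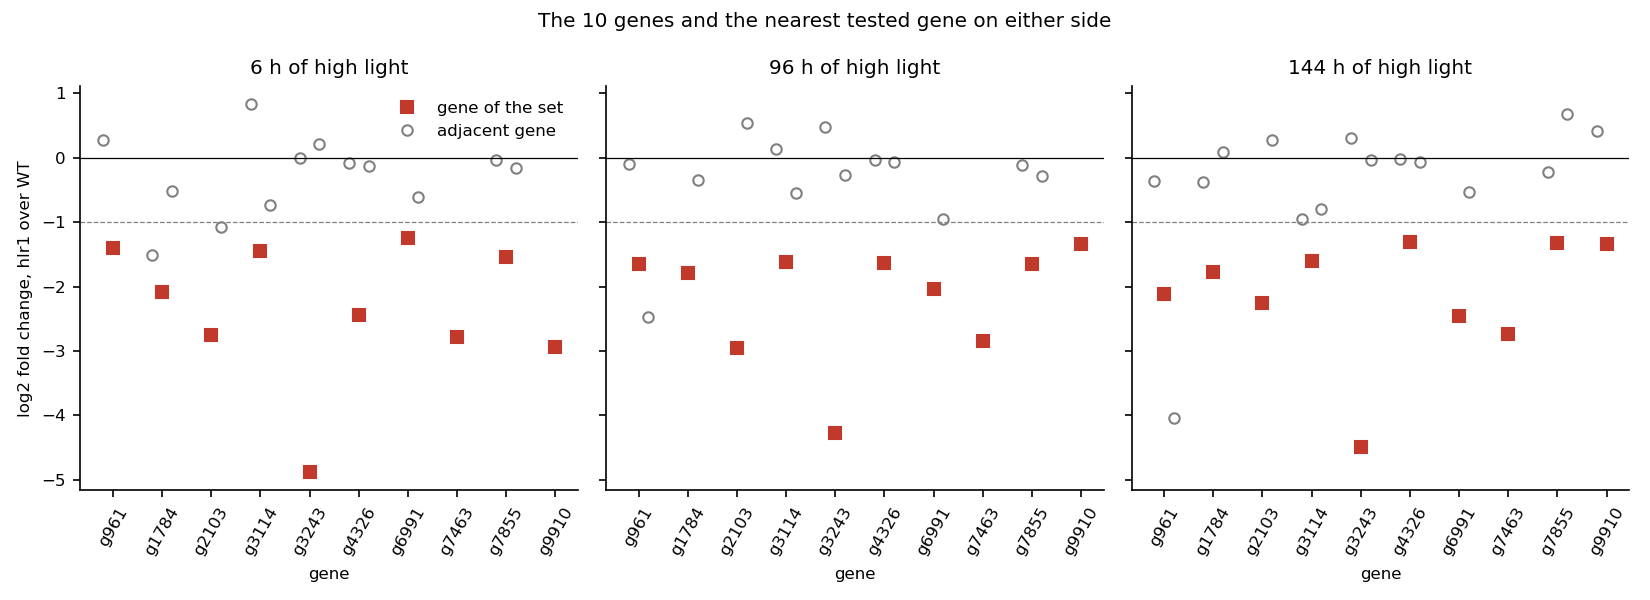
Log2 fold change of hlr1 over WT (y axis) at 6, 96 and 144 h of HL (panels) for each of the 10 genes (red squares) and the nearest annotated gene on its left and right where it was tested (open grey circles), by gene (x axis). Most circles lie near 0, with medians of -0.12, -0.11 and -0.06; the lowest circle, -4.05 at 144 h, is g962 beside g961, and the dashed line marks a 2-fold lower level.

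Other genes with annotations like those of the 10 gave few calls between the strains, in lists too short to set against the share over all genes. Of 30 further DENN and Rab genes, which act in membrane traffic, 30 were tested at 6 h and 1 was called lower (0.265% of all genes were at this time), g4349, another DENN gene on the scaffold of g4326 (log2 fold change -2.86 ± 0.36, edgeR adjusted p = 0.000329). None was called at 96 or 144 h, and the list's medians at 6, 96 and 144 h were 0.04, 0.03 and 0.08. Among 61 further genes listed by glycosidase words in their annotation, g7046 was the only one called. It was lower in hlr1 at 6 and 96 h, of 49 and 57 tested (0.265% and 0.316% over all genes). The study itself names g7046 as a gene of cellulose biosynthesis. The medians of the glycosidase list were -0.03, -0.05 and 0.12.

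Of 62 genes with annotations of N-glycosylation or glycosyl transfer, 1 was called, g7462, a protein of unknown function that was higher in hlr1 at 96 h, where 0.102% of all genes were (log2 fold change 2.25 ± 0.49, edgeR adjusted p = 0.0185). Of the 5 genes of a nitrate list, set beside the domain match of g3243, none was called at 6 or 96 h and 2 were called higher in hlr1 at 144 h, where 0.153% of all genes were, those for nitrate reductase (g7988, 1.02 ± 0.08, edgeR adjusted p = 0.000783) and a high-affinity nitrate transporter (g7989, 1.28 ± 0.09, edgeR adjusted p = 0.000409). None of the genes of these lists was called in the dark or after 1 h.

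Within a strain, the median correlation among the 10 genes was higher with the dark and 1 h libraries than without them. Over the 15 WT libraries the 45 pairs of genes had a median Pearson correlation of log2 CPM of 0.61, between -0.19 and 0.92, with 41 pairs above 0. Over the 9 WT libraries from 6 h on the median was 0.07, between -0.88 and 0.89. In hlr1 the medians were 0.33 over 15 libraries and -0.03 over 9, where pairs lay between -0.90 and 0.92. From 6 h on, 21 of the 45 pairs were above 0 in hlr1 and 24 in WT. Some pairs stayed close in both strains, such as g4326 with g7855 (0.92 in hlr1, 0.89 in WT) and g4326 with g9910 (0.92 and 0.82). These values describe libraries that share depth and, in the early ones, missing counts.

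Outside the 10, the genes most like their mean profile over 30 libraries were g7270 (Pearson correlation 0.86), g9002 (0.83), g8623 (0.81), g2506 (0.81) and the histone deacetylase gene g3844 (0.80). A histone deacetylase removes acetyl groups from histones. Because the profile holds the strain difference that chose the 10, genes lower in hlr1 are favoured by this measure. Of the 5, g9002 was called lower at 6 and 144 h, g7270 and g8623 at 96 h, and g2506 and g3844 at none of the 3 times.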

How the data were processed

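Transcripts of the wild type and the hlr1 insertion mutant were measured by mRNA-Seq in 30 libraries, 3 for each of 2 strains at 5 times. The deposited gene tables hold the authors' whole-number read counts per gene, made after alignment with TopHat2 2.0.12 as named in the submitters' processing notes. The sources used here do not name the genome build, the counting tool or its strand setting. The tables also hold the authors' own fold changes and p-values, which were not used. Counts of the 10363 genes in 5 tables were joined without change.

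The comparisons used edgeR 4.0.16 in R 4.3.3: genes were kept by filterByExpr with a minimum count of 10, libraries were scaled by TMM, and each pair of groups was fitted alone by quasi-likelihood. P-values were adjusted by Benjamini-Hochberg over all genes tested. A call required both an adjusted p below 0.05 and more than 2-fold change. Levels are CPM, counts scaled by library size and TMM factors over all 30 libraries; correlations used log2 CPM with a prior count of 2. The fits were tested on simulated counts.

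The 10 genes, the gene lists and the 3 libraries left out together were chosen with earlier results of these data known. Genes named beside them are HLR1, adjacent genes that were called or stood out beside them, genes just inside or outside the choice, the 5 genes most alike in profile, and called genes of the annotation lists, at most 4 a list. Replicates a, b and c are described as separate sets of samples at each time. Every pair of replicates differed by more than counting noise, with a chi-square per gene between 3.41 and 210.3 over 30 pairs. Whether the letters pair the strains is not given. Deviations of libraries with the same letter correlated between -0.22 and 0.21, which cannot settle it with 3 libraries a group. Alternatives were DESeq2 1.42.0, library totals, no filter, a minimum of 100 counts, all groups in 1 fit, a replicate block, and leaving libraries out. An alternative limited to the libraries with under 3% of well expressed genes at 0 was chosen after the data were seen. Totals lay between 4424898 and 7019039 counts a library, which limits genes with few counts the most.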

Additional observations from a re-analysis of the deposited data

Results flagged for a closer look

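Between the dark and 6 h of HL, g3243 moved in opposite directions in the strains. In hlr1 the log2 ratio of the mean CPM at 6 h over the dark was -1.92, with 2.47, 1.35 and 2.54 CPM at 6 h and 15.4, 6.08 and 2.54 CPM in the dark. In WT it was 1.14, with 60.9, 61.2 and 65.1 CPM at 6 h and 39.2, 8.83 and 37.1 CPM in the dark. It stands here because every 6 h library was below every dark library in hlr1 and above every dark library in WT. In hlr1 the separation was very small at its edge, since the highest 6 h library had 2.535 CPM and the lowest dark library 2.541 CPM. The difference between the strains was not tested. Neither change passed on its own in edgeR, with log2 fold changes of -1.71 ± 0.98 in hlr1 (adjusted p = 0.228) and 1.12 ± 0.58 in WT (adjusted p = 0.197). The dark libraries with the highest and lowest hlr1 level, a and c, had no count for 23.6% and 1.16% of well expressed genes, and the part of these missing counts was not tested. Groups of 3 libraries are too small to single out one outlying library within a group.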

How the results depend on the processing

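With DESeq2, library totals, no filter, a minimum of 100 counts or the replicate block, 9 or 10 of the 10 genes were called lower in hlr1 at 6, 96 and 144 h and none in the dark or after 1 h. Over all genes these settings called 20 to 31 lower at 6 h, 25 to 36 at 96 h and 23 to 35 at 144 h. In the dark and after 1 h only DESeq2 among them called any gene lower, 8 and 3. The strain differences at 6, 96 and 144 h chose the 10 genes, so these counts are a description. With all groups in 1 fit, which shares an estimate of spread with the dark and 1 h libraries, 1 was called in the dark (g4326), 1 at 1 h, 1 at 6 h and 1 at 144 h (g3243 each) and 0 at 96 h, with nearly the same log2 fold changes. Over all 9970 genes tested it called 55 lower in the dark, 4 at 1 h, 2 at 6 h, 1 at 96 h and 2 at 144 h. That fit also called 2 of the 10 in hlr1 at 1 h over dark (g2103 higher, g3243 lower), where it called 524 higher and 737 lower of all 9970. At 6 h over dark in hlr1 it called 2 (g1784 higher, g3243 lower), where 1670 were higher and 1875 lower over all genes. At 96 h over 6 h in hlr1 it called 0, with 485 higher and 52 lower over all genes. Leaving out 1 library gave 9 to 10 genes at 6 h, 9 to 10 at 96 h, 4 to 10 at 144 h, and 0 in the dark and after 1 h. Over all genes it called 19 to 30 lower at 6 h, 20 to 37 at 96 h, 8 to 61 at 144 h, and 0 in the dark and after 1 h. At 6 h over dark in hlr1 it gave 0 to 2 genes, DESeq2 gave 2 (g961 and g1784), leaving out the 3 libraries that stand apart gave 2 (the same 2 genes), and a minimum of 100 counts and the replicate block gave 0. Over all genes, DESeq2 called 1963 of 10200 higher there, and leaving out the 3 libraries 2688 of 9618. At 6 h over dark in WT, DESeq2 and library totals each gave 1 (g9910), leaving out the 3 libraries gave 1 (g961), and leaving out 1 library gave 0 to 1. Over all genes, DESeq2 called 1780 of 10172 higher there, library totals 1778 of 9461 and leaving out the 3 libraries 1751 of 9584. At 96 h over 6 h in WT leaving out 1 library gave 0 to 1. The replicate block also ended the calls of g6991 at 6 h (adjusted p = 0.146), g2103 at 144 h (adjusted p = 0.0778) and g3243 at 96 h over 6 h in hlr1 (adjusted p = 0.0553), all from edgeR. The log2 fold change of g7855 in the dark lay between -0.33 (without hlr1 library a) and 3.40 with 1 library left out, and changed sign to -0.91 without the 3 libraries and to -1.09 between the 2 libraries with the fewest genes at 0. That of g6991 in the dark lay between -7.41 and 0.60 (without WT library a), and that of g3114 at 1 h was 0.025 between the 2 such libraries. The causes were not tested. The early libraries, with up to 23.6% of well expressed genes at 0, limit what can be seen in the dark and at 1 h.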
